A study of Mus musculus with 8 samples.

Results

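Resident immune cell markers are 10 genes, Ptprc, Cd68, Adgre1, Itgam, Csf1r, C1qa, C1qb, Cd74, Cd3e and Cd79a, out of 19938 genes measured in mouse renal cortex. A gene was taken when a probe set was annotated with exactly 1 symbol equal to a listed name, and the brightest such probe set over all arrays was used. All 10 genes were found, each with 1 probe set. The study compared SPAK KO mice, labelled as littermates with a knockout of Stk39, the gene of the SPAK kinase, with WT littermates. All were male C57Bl6J mice of 10 weeks on feed with 0.32% NaCl and 1% KCl, with 4 arrays per genotype, and total RNA of dissected kidney cortex was labelled at 6 µg per sample. The labels name no promoter, Cre line or disrupted exon, and no antibody sort or perfusion step. The source field of the SPAK KO samples reads WTSPAK KO, while their titles and genotype entries read SPAK KO. The study's stated aim concerned genes that limit renal salt loss without SPAK, and the markers describe the leukocytes that share the cortex with the tubules.

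The healthy kidney holds a network of macrophages and dendritic cells between its tubules, and smaller numbers of T and B lymphocytes. Macrophages survive on signals through the CSF1 receptor, clear debris, and are a main source of the complement protein C1q. Antigen-presenting cells load peptides on MHC class II molecules with the help of the invariant chain, and T and B cells recognise antigen through receptors that signal by way of CD3 and CD79 chains. A marker level in whole cortex reflects both how many such cells are present and how much RNA each holds, and a bulk array cannot tell fewer cells from less RNA per cell. It also cannot tell cells in the tissue from leukocytes in blood left in its vessels.

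The values were log2 expression values from RMA, a method that corrects for background, gives all arrays a common distribution and combines the probes belonging to each probe set. Array medians lay between 6.09 and 6.12 in SPAK KO and between 6.13 and 6.19 in WT. Tubule genes were bright, with Slc34a1, the proximal phosphate transporter, at 13.77 to 13.81 on the SPAK KO arrays and 13.76 to 13.83 on the WT arrays. Stk39 was lower in SPAK KO by 1.38 on the log2 scale (log2 difference −1.38 ± 0.11, SE; limma adjusted p = 5.8e-04). The arrays did not stand equally far apart. Among the 6297 genes with a mean above 8, only 1 to 10 differed by over 0.4 between any pair of SPAK KO arrays and 3 between WT 2 and WT 3, against 119 to 228 in the other WT pairs. For that reason WT 2 and WT 3 are counted as 1 sample in WT means ± SD (n = 3). SPAK KO values are given array by array with no SD. Each call below that was made in the fit to all 8 arrays is also given with WT 2 and WT 3 averaged. The labels call the mice littermates but do not say which shared a litter, or whether each array held the RNA of 1 animal, so the p-values measure the spread between these arrays.

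Of the 10 markers, 1 was lower in SPAK KO, Cd3e of T cells, 0 were higher, and 9 did not pass (limma over all genes, Benjamini-Hochberg adjusted p under 0.05). Over all genes 0.682% were called lower and 1.39% higher by the same rule, 2.08% in all. At an unadjusted p under 0.05, 2 markers were lower, Cd3e and Adgre1, and 0 higher, where 10.1% of all genes were lower and 1794 of the 19938 genes were higher. That count depended on scaling, with 1 marker lower and 2 higher when each array was centred on its median, and 1 lower and 1 higher with quantile normalization applied again or cyclic loess. The median difference of the 10 markers was −0.02, against −0.01 over all genes, and it was 0.03 when each array was centred on its median. For the 9 markers other than Cd3e the log2 differences lay between −0.11 and 0.12, and their 95% intervals all lay within −0.28 and 0.28, which is 0.826-fold to 1.22-fold. The adjusted p-values of these 9 ran from 0.253 to 0.956, which does not show that the levels were equal. In 8 of the 10 genes the range over WT arrays exceeded the size of the difference between genotypes, Cd3e and Itgam being the exceptions.

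**Figure D1:**
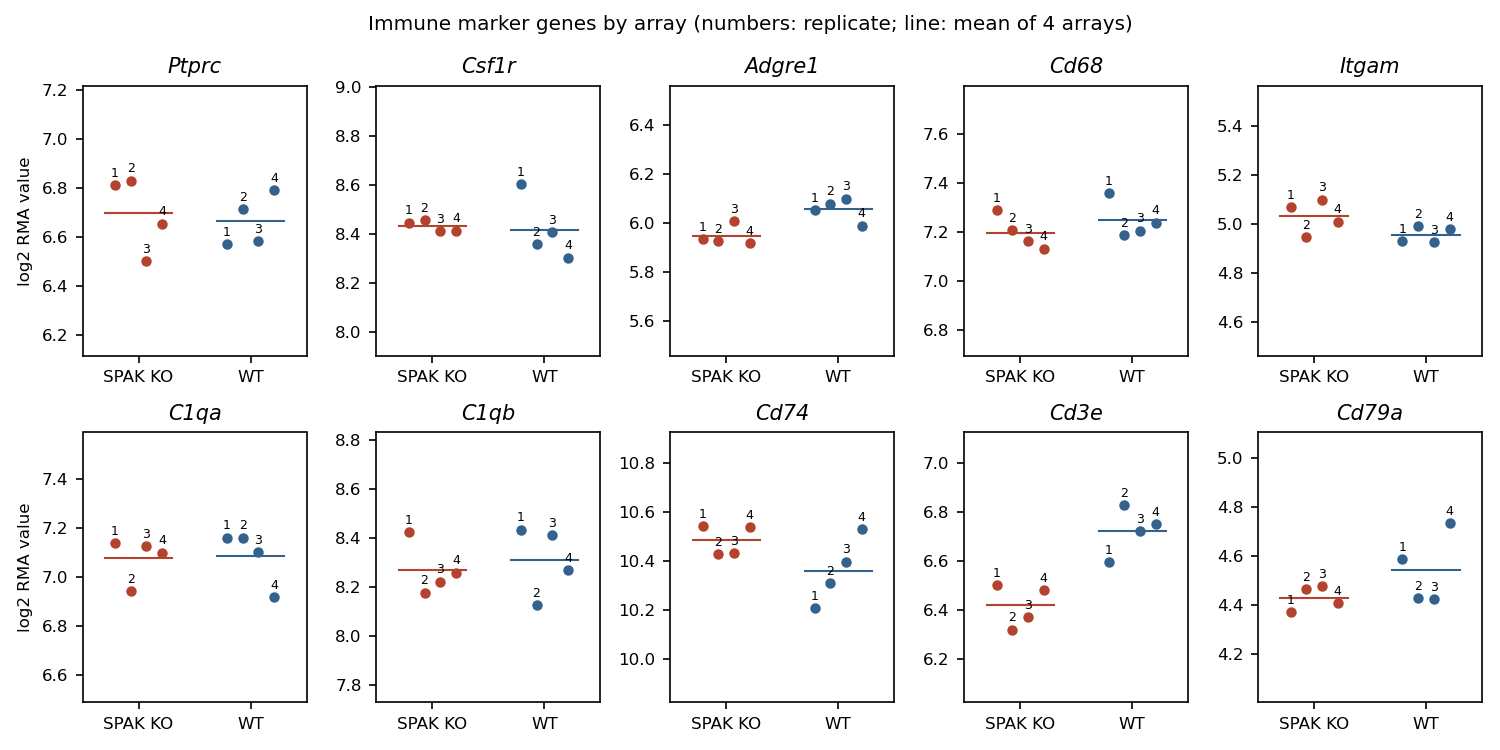
Log2 RMA value (vertical axis, the same span of 1.1 units in every panel) of each immune marker on the 4 SPAK KO arrays and the 4 WT arrays, numbered by replicate, with a line at the mean of each 4. Only in the panel of Cd3e do the genotypes not overlap, with 6.32 to 6.50 in SPAK KO and 6.59 to 6.83 in WT.

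Ptprc encodes CD45, the phosphatase carried by all leukocytes. It read 6.81, 6.83, 6.50 and 6.66 on SPAK KO arrays 1 to 4, against 6.57, 6.71, 6.59 and 6.79 on WT arrays 1 to 4. The WT values lay inside the span of the SPAK KO values, and the difference was 0.03 ± 0.08 (SE; limma adjusted p = 0.853). Its sign turned without SPAK KO 1 or SPAK KO 2. Of 12 other genes shared by leukocytes, 0 passed, also at an unadjusted p under 0.05, and their median difference was 0.02. Among them Cd52, a small surface glycoprotein of lymphocytes and monocytes, read 7.44, 7.11, 7.19 and 7.08 in SPAK KO and 6.88, 6.96, 7.14 and 7.16 in WT. Its difference was 0.17 ± 0.09 (limma adjusted p = 0.345).

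Csf1r, the receptor that macrophages need to survive, stayed within 8.41 to 8.46 on the SPAK KO arrays, against 8.60, 8.36, 8.41 and 8.30 on WT arrays 1 to 4. The SPAK KO arrays fell within the WT range, whose top was WT 1, and the difference was 0.01 ± 0.07 (limma adjusted p = 0.923; 95% interval −0.13 to 0.16). It fell below 0 with quantile normalization applied again or cyclic loess. Of the ligands, Csf1, the growth factor that binds the receptor in most tissues, read 6.04, 5.86, 5.92 and 5.81 in SPAK KO and 6.39, 6.28, 6.18 and 6.16 in WT. Every SPAK KO array lay below every WT array, as in 5.71% of all genes, and the difference was −0.35 ± 0.07 (0.787-fold; limma adjusted p = 0.0340). With arrays dropped in turn the call held in 2 of 8 fits, and it ended with WT 2 and WT 3 averaged (limma adjusted p = 0.0655). Il34, the other ligand of the receptor, read 7.74, 7.88, 7.78 and 7.89 in SPAK KO and 7.83, 7.46, 7.67 and 7.81 in WT, with a difference of 0.13 ± 0.08 (limma adjusted p = 0.432). The groups overlapped for Il34.

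Adgre1 encodes an adhesion G protein-coupled receptor widely used to mark mouse macrophages. It read 5.93, 5.93, 6.01 and 5.92 in SPAK KO and 6.05, 6.08, 6.10 and 5.99 in WT. WT 4 fell below SPAK KO 3, so the groups overlapped by those arrays. The difference was −0.11 ± 0.05 (limma adjusted p = 0.253), with a 95% interval of −0.22 to −0.0025 that just missed 0 before adjustment over all genes. With WT 2 and WT 3 averaged the interval, −0.22 to 0.02, included 0. The difference was −0.05 with arrays centred on their median, and −0.06 with quantile normalization applied again or cyclic loess. Cd68, a glycoprotein of macrophage lysosomes, read 7.29, 7.21, 7.16 and 7.13 in SPAK KO and 7.36, 7.19, 7.21 and 7.24 in WT. The difference of −0.05 ± 0.06 (limma adjusted p = 0.670) became 0.0091 when arrays were centred on their median. Itgam, the alpha chain of the integrin CD11b/CD18 of monocytes, macrophages and neutrophils, read 5.07, 4.95, 5.10 and 5.01 in SPAK KO and 4.93, 4.99, 4.93 and 4.98 in WT. Its difference was 0.07 ± 0.05 (limma adjusted p = 0.450), and its partner Itgb2, which encodes the shared beta chain, gave −0.17 ± 0.10 (limma adjusted p = 0.404). For Itgam it was 0.13 centred, 0.15 with quantile normalization applied again and 0.14 with cyclic loess, and Itgam passed in none of these. Itgam and Cd79a had means under 6 and Adgre1 a mean of 6.00, below the median gene mean of 6.72. Cd3e, at 6.57, and Ptprc, at 6.68, also lay below that median, which makes 5 of the 10 markers. No detection call accompanies the values, so how far these probe sets lay above background is unknown.

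C1qa and C1qb encode chains of C1q, the recognition protein of the classical complement pathway, and stand with C1qc as neighbours on chromosome 4 in the order C1qb, C1qc, C1qa. C1qa read 7.14, 6.94, 7.12 and 7.10 in SPAK KO and 7.16, 7.16, 7.10 and 6.92 in WT. C1qb read 8.42, 8.18, 8.22 and 8.26 in SPAK KO and 8.43, 8.12, 8.41 and 8.27 in WT. Both genes overlapped fully between genotypes, with differences of −0.0085 ± 0.07 for C1qa (limma adjusted p = 0.956) and −0.04 ± 0.08 for C1qb (limma adjusted p = 0.821), which lay above 0 once each array was centred. C1qc read 7.57, 7.37, 7.52 and 7.47 in SPAK KO and 7.06, 7.52, 7.67 and 7.57 in WT, a difference of 0.03 ± 0.12 (limma adjusted p = 0.918) that fell below 0 with quantile normalization applied again. The chains did not share an order of arrays, since WT 1 was at the top of the WT arrays for C1qa, level with WT 2, and for C1qb, and at the bottom for C1qc.

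Of 19 other monocyte and macrophage genes measured, 0 passed, with 2 lower and 2 higher at an unadjusted p under 0.05 and a median difference of −0.0072 that was above 0 under each rescaling of the arrays. With arrays centred on their median 0 were lower and 5 higher at that p, and 1, Fcgr2b, was called higher. The genes with the smallest p went opposite ways. Fcgr2b, the inhibitory Fc receptor, read 9.88, 9.84, 9.93 and 9.87 in SPAK KO and 9.36, 9.43, 9.55 and 9.83 in WT, a difference of 0.34 ± 0.09 (limma adjusted p = 0.0913). It passed in 5 of 21 alternatives. With arrays dropped in turn it passed in 1 of 8 fits, that without WT 4, the highest WT array (limma adjusted p = 0.00675). It passed when centred (limma adjusted p = 0.0418), a setting that raised the median gene by 0.0586. It did not pass with WT 2 and WT 3 averaged (limma adjusted p = 0.155). Fcgr2b is also made by endothelial cells of some organs, as background. Cx3cr1, the fractalkine receptor of kidney macrophages and dendritic cells, read 6.98, 6.88, 6.85 and 6.98 in SPAK KO and 7.00, 7.08, 7.19 and 7.10 in WT, a difference of −0.17 ± 0.06 (limma adjusted p = 0.150). For both genes the groups did not overlap, which held for 5.71% of all genes in the lower direction and 6.90% in the higher.

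**Figure D2:**
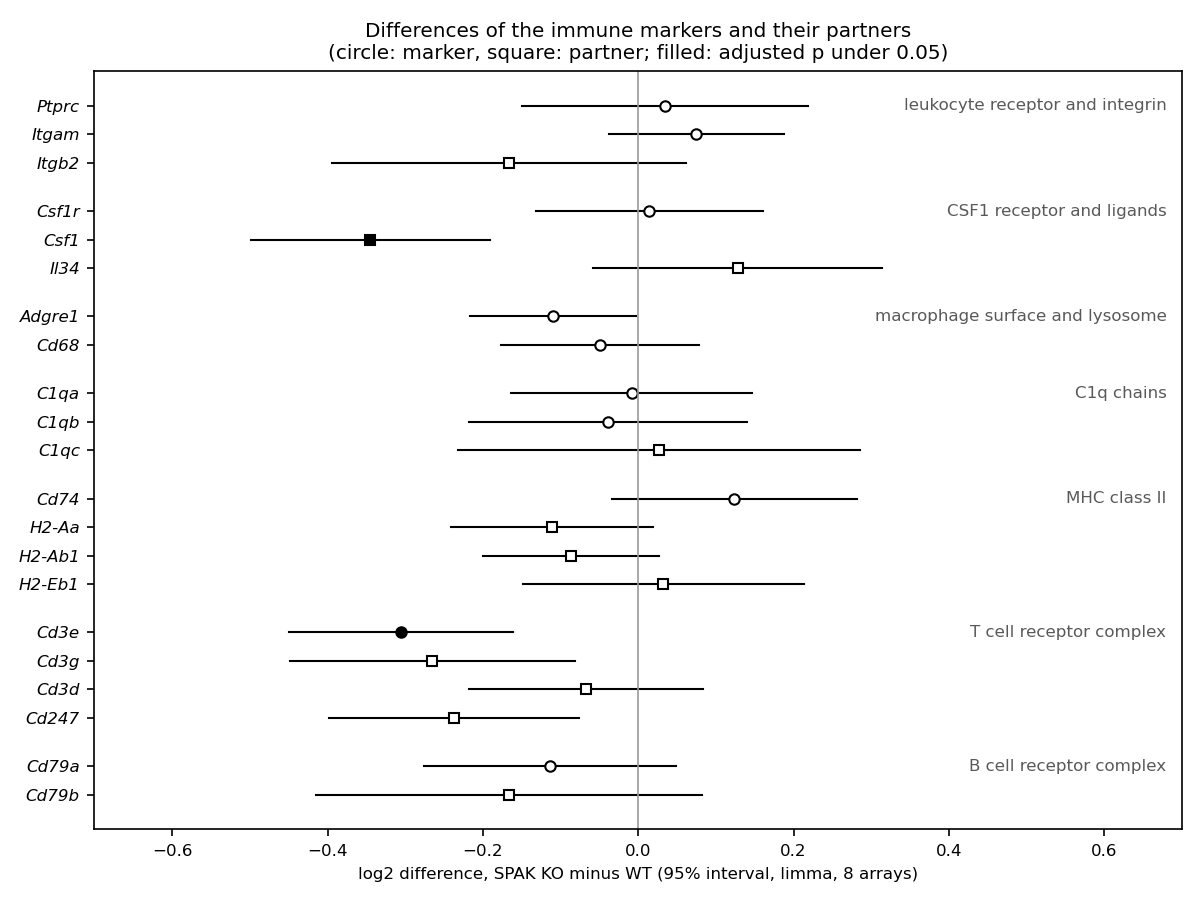
Log2 difference, SPAK KO minus WT, with its 95% interval (horizontal axis; limma over 8 arrays) for the 10 markers (circles) and the fixed partners of their receptors and complexes (squares), filled where the adjusted p was under 0.05. Cd3e at −0.31 and Csf1 at −0.35 are the filled symbols, and the intervals of the other markers lie within −0.28 and 0.28.

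Cd74 encodes the invariant chain, which guides MHC class II molecules to the compartment where peptides are loaded. It read 10.54, 10.43, 10.43 and 10.54 in SPAK KO and 10.21, 10.31, 10.40 and 10.53 in WT. SPAK KO exceeded the mean of WT, but WT 4 lay among the SPAK KO arrays, and Cd74 had the widest WT range of the markers, 0.32. The difference was 0.12 ± 0.07 (1.09-fold; limma adjusted p = 0.371), or 0.0724 without WT 1. The class II chains that Cd74 escorts did not pass either. H2-Aa gave −0.11 ± 0.06 and H2-Ab1 −0.09 ± 0.05 (limma adjusted p = 0.334 and 0.383), and H2-Eb1 gave 0.03 ± 0.08 (limma adjusted p = 0.858), or −0.0015 with quantile normalization applied again. Of 16 genes of class II presentation and dendritic cells measured, 0 passed and 1 was higher at an unadjusted p under 0.05. That gene was Cd209a, a lectin of monocyte-derived dendritic cells, at 7.61, 7.68, 7.54 and 7.82 in SPAK KO and 6.53, 7.45, 7.21 and 7.34 in WT. Its groups did not overlap, WT 1 was the lowest array, and the difference was 0.53 ± 0.17 (limma adjusted p = 0.137). Without WT 1 it was 0.33.

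Cd3e encodes the epsilon chain of CD3, the signalling part of the T cell receptor. It read 6.50, 6.32, 6.37 and 6.48 on SPAK KO arrays 1 to 4, against 6.59, 6.83, 6.72 and 6.75 on WT arrays 1 to 4. All SPAK KO arrays lay below all WT arrays, which held for 5.71% of all genes in this direction. WT averaged 6.71 ± 0.10 (SD, n = 3), and the difference was −0.31 ± 0.07 (SE), or 0.809-fold with a 95% interval of 0.732 to 0.895 (limma adjusted p = 0.0444). With arrays dropped in turn the call held in 1 of 8 fits, the fit without WT 1 (limma adjusted p = 0.0257). In the other 7 the adjusted p ran from 0.0672 to 0.117. It ended with WT 2 and WT 3 averaged (difference −0.29, limma adjusted p = 0.0937) and with each array centred on its median (−0.25, limma adjusted p = 0.0854). The difference lay between −0.35 and −0.25 under the 20 alternatives in which the gene was tested. Only those that rescaled, dropped or averaged arrays could move it. Changes of variance model, probe set rule, genes tested or replicate block leave it at −0.31 by construction.

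**Figure D3:**
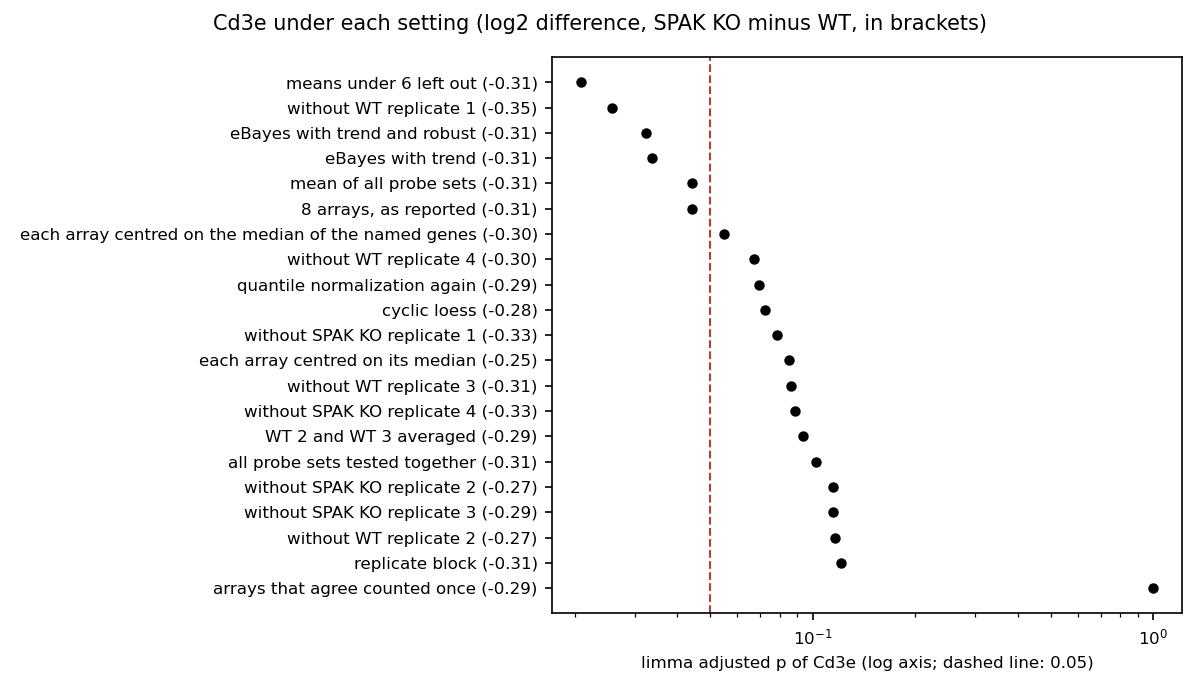
Limma adjusted p of Cd3e (horizontal axis, log scale) under each processing setting, with the log2 difference of that setting, SPAK KO minus WT, in brackets. The threshold of 0.05 is dashed, and 5 of the 20 alternatives lie to its left. Among these 5, the mean of all probe sets leaves the values of Cd3e unchanged, since it has 1 probe set.

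The promoters of Cd3e, C1qb and Cd79a are printed because these genes stand for T cells, macrophages and B cells, of which only the T cell gene was called. Each covers 250 bases before to 50 after the start in RefSeq, GRCm38.p6, at chr9:45009562-45009861 on the minus strand for Cd3e, chr4:136886151-136886450 on the minus strand for C1qb and chr7:24897247-24897546 on the plus strand for Cd79a, written 5′ to 3′. Capitals mark AGGAAGT or its reverse complement ACTTCCT, letters that hold the core bound by ETS factors such as PU.1.
Cd3e: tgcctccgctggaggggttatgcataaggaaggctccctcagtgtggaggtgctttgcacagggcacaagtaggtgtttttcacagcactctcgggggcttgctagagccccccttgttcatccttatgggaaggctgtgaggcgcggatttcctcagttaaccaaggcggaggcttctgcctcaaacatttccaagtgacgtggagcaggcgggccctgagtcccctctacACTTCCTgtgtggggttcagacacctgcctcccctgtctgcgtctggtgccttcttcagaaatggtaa
C1qb: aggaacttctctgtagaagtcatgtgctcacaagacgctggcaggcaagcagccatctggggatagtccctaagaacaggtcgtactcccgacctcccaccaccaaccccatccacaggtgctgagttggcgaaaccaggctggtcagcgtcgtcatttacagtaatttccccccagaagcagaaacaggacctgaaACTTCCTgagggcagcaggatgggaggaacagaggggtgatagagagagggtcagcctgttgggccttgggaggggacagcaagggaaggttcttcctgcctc
Cd79a: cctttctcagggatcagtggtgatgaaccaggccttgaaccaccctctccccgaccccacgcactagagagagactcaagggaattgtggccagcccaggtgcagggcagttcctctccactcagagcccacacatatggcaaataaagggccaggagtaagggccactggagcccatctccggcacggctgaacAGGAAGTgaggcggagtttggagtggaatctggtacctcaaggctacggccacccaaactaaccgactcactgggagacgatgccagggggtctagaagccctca
The motif, chosen after these sequences were seen and searched on both strands, occurred for 4 of the 6 markers with a window (Cd3e, C1qb, Cd79a and Ptprc, whose 2 windows overlap) and not for Cd68 or Itgam. It was in 9.35% of all 32851 windows, a share that cannot serve as a test since the motif was picked from these sequences. A match of letters is not a site.

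In the RefSeq table the coding genes Cd3g, Cd3d and Cd3e follow each other on chromosome 9, and with Cd247, the zeta chain, they make up the chains that carry the T cell receptor's signal. All 4 had differences below 0, and only Cd3e was called. Cd3g read 4.33, 4.73, 4.42 and 4.36 in SPAK KO and 4.67, 4.73, 4.75 and 4.75 in WT, a difference of −0.27 ± 0.08 (limma adjusted p = 0.128). SPAK KO 2 alone of the SPAK KO arrays reached the WT range for Cd3g. With arrays dropped in turn Cd3g passed in 1 of 8 fits, the fit without SPAK KO 2 (limma adjusted p = 0.0222). It did not pass with WT 2 and WT 3 averaged (limma adjusted p = 0.197). Cd247 read 5.63, 5.50, 5.64 and 5.48 in SPAK KO and 5.86, 5.79, 5.62 and 5.92 in WT, a difference of −0.24 ± 0.07 (limma adjusted p = 0.123). Cd3d gave −0.07 ± 0.07 (limma adjusted p = 0.622). Cd3g, Cd3d and Cd247 had means under 6.

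Of 20 other T and NK cell genes measured, 0 passed, with 6 lower and 0 higher at an unadjusted p under 0.05, and 14 had differences below 0. Over all genes 10.1% were lower at that p, and 10813 of 19938 lay below 0. Centring, quantile normalization applied again and cyclic loess each gave 4 lower and 1 higher, with 10 genes below 0. The median difference of the list was −0.06, or −0.0025 when centred. The 6 genes above 0 on the values as deposited were Cd2 (0.18), Il7r (0.09), Cd8a (0.09), Thy1 (0.04), Icos (0.01) and Gzmb (0.01). Gzma and Nkg7 had the smallest p of the list. Gzma, a protease of cytotoxic granules, read 4.17, 4.01, 3.89 and 4.13 in SPAK KO and 4.40, 4.70, 4.34 and 4.30 in WT, with a difference of −0.39 ± 0.09 (limma adjusted p = 0.0717). Nkg7, a granule membrane protein of NK and cytotoxic T cells, read 6.21, 6.23, 6.04 and 5.86 in SPAK KO and 6.39, 6.36, 6.71 and 6.48 in WT, with −0.40 ± 0.10 (limma adjusted p = 0.0742). For both genes the groups did not overlap, and neither passed over all genes, although both did when the variance was modelled as a trend over expression (limma adjusted p = 0.0497 and 0.0444). Both also passed with the robust form of that trend (limma adjusted p = 0.0463 and 0.0398). Nkg7 passed as well with genes of mean under 6 left out (limma adjusted p = 0.0433), a filter that drops Gzma. With WT 2 and WT 3 averaged neither passed (limma adjusted p = 0.0797 and 0.0909). The summed linear level of the 20 genes was 746.3 to 777.6 in SPAK KO and 801.2 to 844.1 in WT. With arrays centred on their median these ranges met, at 766.4 to 787.0 in SPAK KO and 781.6 to 833.9 in WT. As many as 18 of the 20 had means under 6, so the filter leaves out most of the list. The part of dim signal in the result was not tested.

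**Figure D4:**
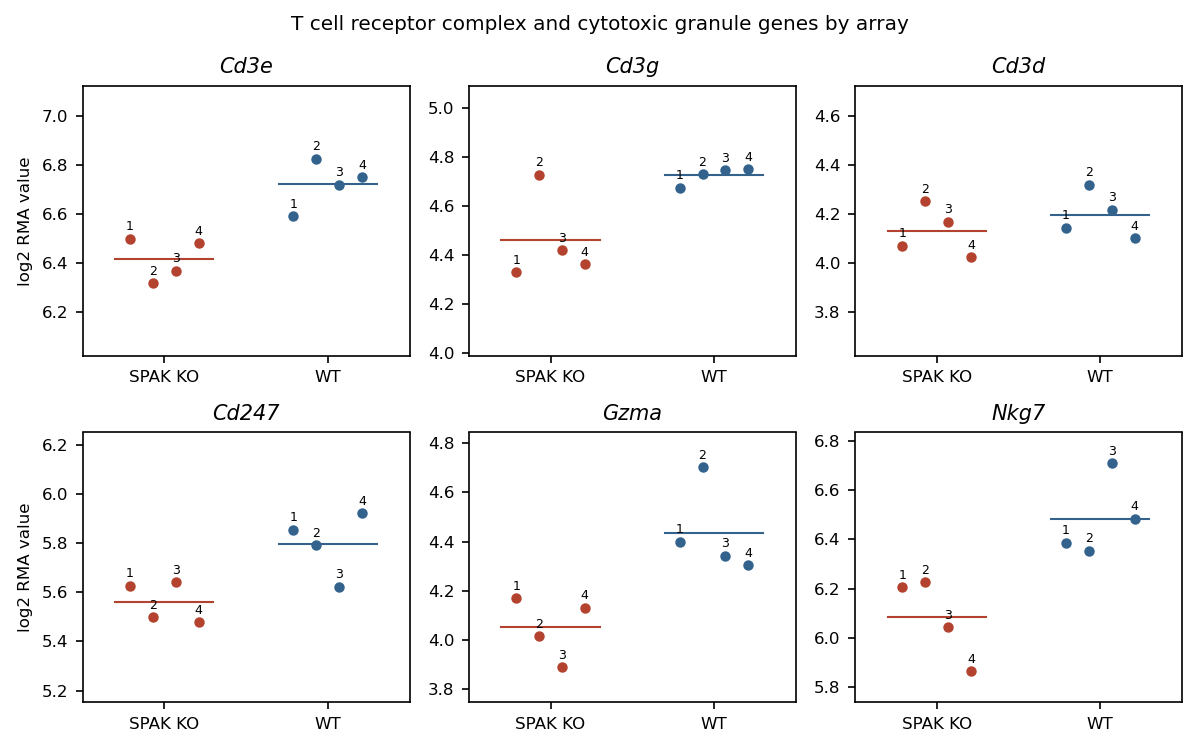
Log2 RMA value of the CD3 and zeta chain genes and of Gzma and Nkg7 on each SPAK KO and WT array (numbered by replicate; line at the mean of 4 arrays; every panel spans 1.1 units). Cd3e, Gzma and Nkg7 do not overlap between genotypes, while SPAK KO 2 reaches the WT values in Cd3g.

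Cd79a encodes a signalling chain of the B cell receptor. It read 4.37, 4.46, 4.48 and 4.41 in SPAK KO and 4.59, 4.43, 4.42 and 4.73 in WT. WT 2 and WT 3 lay within the SPAK KO range while WT 1 and WT 4 lay above it, and the difference was −0.11 ± 0.07 (limma adjusted p = 0.425), or −0.0492 without WT 4. Its partner chain Cd79b gave −0.17 ± 0.11 (limma adjusted p = 0.447). Of 13 other B and plasma cell genes measured, 0 passed, with 4 lower and 2 higher at an unadjusted p under 0.05. Differences lay below 0 in 10 of the 13 and above 0 in 3, with a median of −0.06. Over all genes 10.1% were lower at that p, and 10813 of 19938 lay below 0. At that p the lower genes were Cd22 (−0.31), Pax5 (−0.20), Blk (−0.16) and Mzb1, and the higher genes Jchain and Sdc1 (0.24). Centring on the array median, quantile normalization applied again and cyclic loess each gave 2 lower and 2 higher, with 7 genes below 0. Genes of antibody secretion stood on both sides. Jchain, which joins IgM and IgA units, read 5.58, 5.44, 5.38 and 5.48 in SPAK KO and 5.29, 5.13, 5.15 and 5.35 in WT, a difference of 0.24 ± 0.07 (limma adjusted p = 0.103). Of 19 alternatives Jchain passed in 1, with arrays centred on their median (0.30, limma adjusted p = 0.0384). That setting raised the median gene by 0.0586. With WT 2 and WT 3 averaged Jchain did not pass (limma adjusted p = 0.180). Mzb1, a chaperone of antibody assembly in plasma cells, read 6.16, 5.94, 6.28 and 6.28 in SPAK KO and 6.36, 6.66, 6.46 and 6.37 in WT, a difference of −0.30 ± 0.09 (limma adjusted p = 0.124).

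Across 10 further immune lists, 124 genes were measured of 133 named, and 2 were called lower, Csf1 and C3ar1, and 0 higher. At an unadjusted p under 0.05 the count was 27, or 21.8%, against 19.1% of all genes. C3ar1, the receptor for the complement fragment C3a, read 5.93, 6.15, 6.12 and 6.16 in SPAK KO and 6.39, 6.33, 6.48 and 6.40 in WT. Its groups did not overlap, and the difference was −0.31 ± 0.06 (0.806-fold; limma adjusted p = 0.0364). With arrays dropped in turn it passed in 0 of 8 fits, and it did not pass with WT 2 and WT 3 averaged (limma adjusted p = 0.0645). Of the 12 neutrophil genes 0 passed, with 3 lower and 0 higher at an unadjusted p under 0.05, against 10.1% of all genes lower. Centring, quantile normalization applied again and cyclic loess each gave 0 lower and 2 higher. All 12 had means under 6, and 9 had differences below 0. The smallest p belonged to Camp (−0.18 ± 0.06, limma adjusted p = 0.166) and S100a9 (−0.19 ± 0.07, limma adjusted p = 0.201), both antimicrobial proteins of granulocytes. S100a8 gave −0.03, and the 3 genes above 0 were Cxcr2 (0.14), Retnlg (0.13) and Mpo (0.13). Of 6 mast cell and basophil genes 0 passed, with 0 in each direction at an unadjusted p under 0.05. Kit, the stem cell factor receptor, gave 0.21 ± 0.10 and Cpa3, a mast cell protease, −0.13 ± 0.06 (limma adjusted p = 0.271 and 0.281).

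Of 13 chemokines that draw leukocytes, 0 passed, with 1 lower and 3 higher at an unadjusted p under 0.05. Cxcl1, which attracts neutrophils, read 7.12, 6.80, 6.81 and 6.69 in SPAK KO and 6.66, 6.52, 6.46 and 6.05 in WT, a difference of 0.43 ± 0.13 (limma adjusted p = 0.121). Cxcl12, the ligand of CXCR4, gave 0.22 ± 0.07 (limma adjusted p = 0.146). Of 21 alternatives Cxcl12 passed in 1, with arrays centred on their median (limma adjusted p = 0.0489). That setting raised the median gene by 0.0586. With WT 2 and WT 3 averaged Cxcl12 did not pass (limma adjusted p = 0.234). The groups did not overlap for Cxcl1 or Cxcl12, as in 6.90% of all genes in the higher direction. Of the 8 complement genes measured C3ar1 was called, with 1 lower and 0 higher at an unadjusted p under 0.05. Of the 6 myeloid growth factor genes Csf1 was called, with 1 lower and 1 higher at that p. The higher gene was Kitl, at 0.28 ± 0.08 (limma adjusted p = 0.111), and its groups did not overlap.

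**Figure D5:**
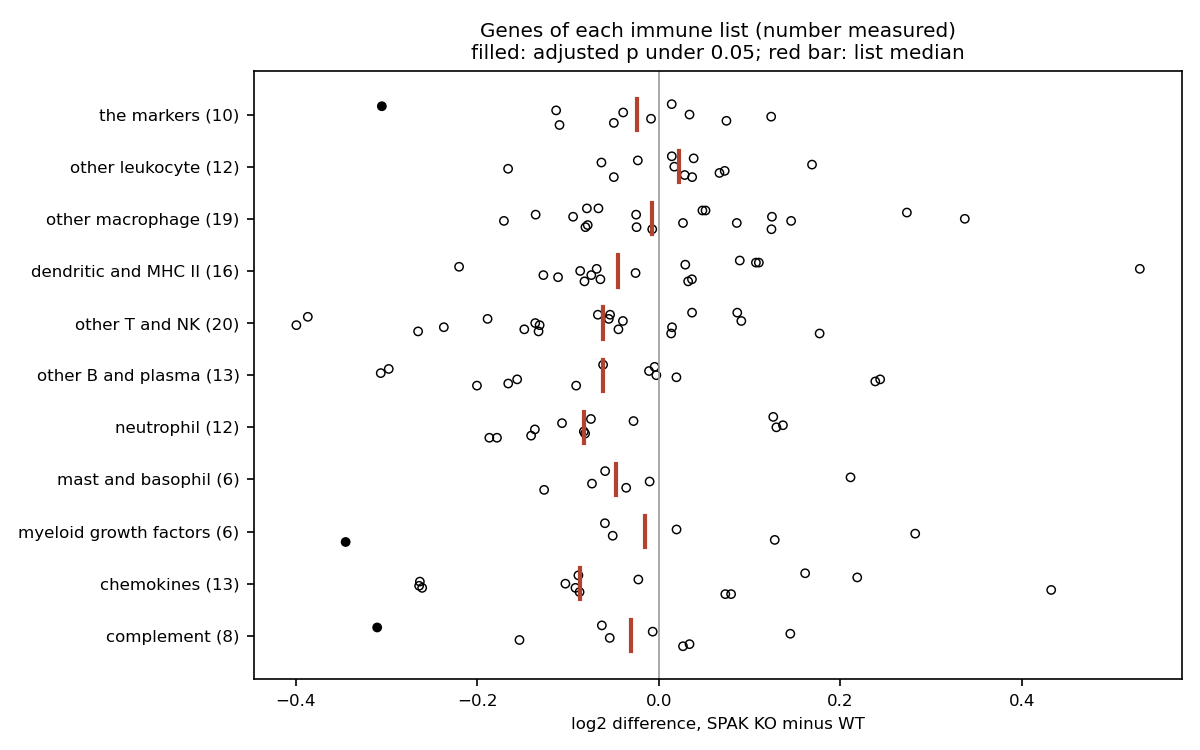
Log2 difference, SPAK KO minus WT (horizontal axis), of every measured gene of the 10 markers and the 10 further immune lists, with the list median as a red bar and called genes filled. Besides Cd3e, the filled points are Csf1 and C3ar1, and the list medians lie between −0.09 and 0.02.

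The highest and lowest array for each marker were taken within each genotype, so these counts do not compare the genotypes. WT 1 was the highest WT array for 4 of the 10 markers, and the median deviation of the 6 macrophage markers from their own means was 0.11 on WT 1, the largest of the 8 arrays. Among SPAK KO arrays, SPAK KO 1 was the highest for 5 markers and SPAK KO 2 the lowest for 5. The genes whose 8 array values, each centred on its own mean, lay nearest to those of Cd3e were Vegfd, Gbp5 and Mthfd1l, at root-mean-square distances of 0.0436, 0.0540 and 0.0610 on the log2 scale. The nearest to Cd74 were Ptms, Kng2 and Homez, at 0.0171, 0.0239 and 0.0261. These distances are descriptions over 8 arrays that were not all independent.

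Genes of other cell types were read on the same arrays. Of 5 perirenal fat genes, Retn was called higher (0.31 ± 0.07, limma adjusted p = 0.0467), and 3 were higher and 0 lower at an unadjusted p under 0.05. Their summed linear level was 616.0 to 643.2 in SPAK KO and 541.3 to 605.1 in WT, and with arrays centred on their median 627.2 to 660.5 in SPAK KO and 528.1 to 579.2 in WT. Of 7 stromal genes Fn1, which encodes fibronectin, was called lower (−0.25 ± 0.05, limma adjusted p = 0.0446), and 2 were lower and 0 higher at an unadjusted p under 0.05, with sums of 2637.3 to 2759.1 in SPAK KO and 2634.0 to 2871.2 in WT. Of 7 endothelial genes 0 were called, with 1 lower and 0 higher at an unadjusted p under 0.05, Emcn at −0.12 ± 0.05 and Ehd3 at −0.15 ± 0.07 (limma adjusted p = 0.240 and 0.318). Their sums were 4593.4 to 4869.7 in SPAK KO and 4893.2 to 5023.5 in WT, and these ranges met with arrays centred on their median. Of 6 red blood cell and platelet genes measured 0 were called, with 1 lower at an unadjusted p under 0.05, Gp9, a platelet receptor subunit, at −0.16 ± 0.07 (limma adjusted p = 0.230). Their sums were 766.1 to 809.1 in SPAK KO and 752.0 to 969.4 in WT, and Slc4a1, which intercalated cells also make, gave −0.15 ± 0.11 (limma adjusted p = 0.509). Of 7 tubule genes Aqp2 was called lower (−0.29 ± 0.06, limma adjusted p = 0.0447), and 3 were lower and 2 higher at an unadjusted p under 0.05, with sums of 38591.5 to 39095.2 in SPAK KO and 38330.3 to 39575.7 in WT. The calls of Fn1 and Aqp2 ended with WT 2 and WT 3 averaged (limma adjusted p = 0.0909 and 0.0999), and that of Retn did not (limma adjusted p = 0.0358). With arrays dropped in turn, the call of Aqp2 held in 1 of 8 and those of Fn1 and Retn in 0 of 8. The part of these cells, or of blood left in the tissue, in the values of Cd3e, Csf1 and C3ar1 was not tested.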

How the data were processed

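Total RNA of renal cortex from 4 SPAK KO and 4 WT mice was hybridised to 1-colour Affymetrix arrays. Per the submitters' processing notes, the authors used Affymetrix Expression Console and RMA, and the deposited numbers are on the log2 scale, 1 per probe set and array. Its version, the genome build and any filter are not given in the sources used here. There were 35556 probe sets with 0 missing values. The platform annotation gave 1 symbol to 21789, several to 1621 and none to 12146, and 19856 of the 19938 genes were in the RefSeq gene table. Arrays, not counts, limit the precision.

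The test was limma 3.58.1 (lmFit, eBayes, genotype only; R 4.3.3, statmod 1.5.0 for the robust alternative), checked on simulated data, with Benjamini-Hochberg adjustment over all genes and calls under 0.05. Differences are SPAK KO minus WT with moderated SE and 95% intervals. Sums are of 2 to the power of the log2 values. Alternatives changed scaling, variance model, probe set rule, genes tested, dim-gene filter (mean under 6) and arrays. Named genes were the markers, Stk39, fixed partners, up to 4 called genes of each list or else the 2 with the smallest p, and 3 genes nearest in array values to the marker with the smallest p and to that with the widest WT range. The markers and lists were chosen with earlier results of these data known. Replicate numbers were not taken to pair arrays.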

Additional observations from a re-analysis of the deposited data

Results flagged for a closer look

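Of 100 groups of 4 arrays examined for the 50 named genes, 1 held an array whose gap to the nearest other passed Dixon's critical value, and chance alone marks about 1 in 20. C3ar1 read 5.93 on SPAK KO 1, against 6.12 to 6.16 on the other 3 SPAK KO arrays, a gap of 0.843 of the range. None of the 10 immune markers held such an array.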

How the results depend on the processing

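Under 21 alternatives the number of markers called higher was 0 throughout. The number called lower was 1 as reported and 0 with WT 2 and WT 3 averaged, arrays that agree counted once, all probe sets tested together, cyclic loess, quantile normalization again, either centring, the dimmest genes left out (which drops Cd3e) and the replicate block, and it was 0 to 1 without single arrays. The median difference of the markers was 0.0347 with arrays centred on their median and −0.05 to 0.0023 without single arrays. Centring on the median, which moved the median gene by 0.0586, split the calls over all genes into 673 higher and 88 lower, against 278 and 136. The Stk39 difference was −1.32 with agreeing arrays counted once, which leaves SPAK KO as 1 sample, so the lost calls there follow from the design. Centring on the median of the named genes was added after the data were seen.

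Signs turned in small differences. C1qa gave 0.0066 with WT 2 and WT 3 averaged or agreeing arrays counted once, 0.0501 centred, and −0.0643 to 0.0359 without single arrays, above 0 without SPAK KO 2, WT 1 or WT 2. C1qb gave 0.0194 centred and −0.1007 to 0.0020 without single arrays, above 0 without WT 1, and Cd68 0.0091 centred. Csf1r gave −0.0257 with loess, −0.0286 with quantile normalization and −0.0240 to 0.0758 without single arrays, below 0 without WT 2 or WT 4. C1qc gave −0.0066 with quantile normalization, −0.0033 without SPAK KO 1 and −0.1039 without WT 1. H2-Eb1 gave −0.0015 with quantile normalization and −0.0564 to 0.0737 without single arrays, below 0 without WT 1. Ptprc gave −0.0037 without SPAK KO 1 and −0.0095 without SPAK KO 2. The cause was not tested.

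Arrays with the same replicate number had deviations correlated at 0.07, 0.10, −0.065 and 0.192, and those with unlike numbers at −0.228 to 0.173. These values do not settle whether the numbers pair arrays. The labels do not say that they do, so the numbers were not taken as pairs. A replicate block cannot move a difference in this balanced design. With it Cd3e, at −0.31, no longer passed (limma adjusted p = 0.121) and Cxcl1, at 0.43, passed (limma adjusted p = 0.0499).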
